A study of Rattus norvegicus with 10 samples.

Results

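The genes described here encode milk fat globule proteins, and enzymes and binding proteins that the mammary epithelium secretes or displays at its surface. They also include *Olah*, which encodes a thioesterase acting on fatty acid synthase. They are *Xdh*, *Btn1a1*, *Plin2*, *Mfge8*, *Muc1*, *Folr1*, *Olah*, *Lpo*, *Ltf* and *Cel*, 10 of the genes that an alveolar cell is known to use in milk secretion. A probe set was taken when the array annotation paired it with 1 of these genes alone, by current or former symbol, and every such probe set was kept. This gave 9 probe sets for 8 of the 10 genes, among 31042 probe sets and 14217 named genes tested. No probe set was paired with *Btn1a1* or *Ltf*, so butyrophilin and lactotransferrin were not analysed here. *Plin2* has 2 probe sets, 1382680_at and 1390383_at, and each other gene has 1.

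Mammary glands of 5 ACI rats (strain ACI/SegHsd) and 5 BN rats (strain Brown Norway) were compared, with 1 Affymetrix Rat Genome array per rat. All were female, and all received 17β-estradiol (E2) for 12 weeks from subcutaneous implants placed at 9 weeks of age, so the ACI rats were 21 weeks old at collection. Sham treated rats are not among these arrays, so each difference is between strains under E2 and is not a response to E2. The labels give ACI rats 1 to 3 and BN rats 1 to 3 animal IDs opening with S, and rats 4 and 5 of each strain IDs opening with H; the sources used here do not explain the letters. The strains were deposited under separate runs of accessions, and the protocol for RNA isolation of the BN rats speaks of ACI rats, while their strain is labelled Brown Norway. Strain and deposit cannot be told apart. The total RNA came from whole glands, so in every value below fewer cells of a type and less RNA per cell cannot be told apart.

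Milk fat leaves the alveolar cell as a droplet that is pushed through the apical membrane and so acquires a membrane coat. Plin2 (perilipin 2, formerly adipophilin) covers the cytoplasmic droplet, and Xdh (xanthine dehydrogenase, a purine-oxidizing enzyme that also has a structural role in the globule) binds butyrophilin at the apical membrane. Mfge8 (lactadherin) and Muc1 (a transmembrane mucin) are further proteins of the globule surface. Olah is the thioesterase that releases medium-chain fatty acids from fatty acid synthase, Folr1 binds folate, Lpo (lactoperoxidase) is an antibacterial enzyme of milk, and Cel is the bile salt-activated lipase.

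*Folr1*, *Olah* and *Mfge8* were more highly expressed in ACI glands than in BN glands, and no probe set of these genes was called higher in BN. Among the 9 probe sets, 3 were called at an adjusted p under 0.05 from limma, all toward ACI, and 6 were not. This is 33.3% of the probe sets of these genes, against 12.7% of all 31042 tested in either direction with 6.79% toward ACI and 5.87% toward BN. Of the probe sets with a mean log2 level of at least 4, as 8 of these 9 had, 24.6% were called. Differences are given as the log2 level in ACI minus that in BN. They ranged from -0.70 to 2.63, 7 of the 9 were above 0, and their median was 0.57, against 0.042 over the 14525 probe sets with a mean log2 level of at least 4. Values are log2 expression from GCRMA, which subtracts a background predicted from the probe's bases and then puts arrays on a common scale. A probe set under a log2 level of 4 in all rats of a strain is described as near background there.

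**Figure D1:**
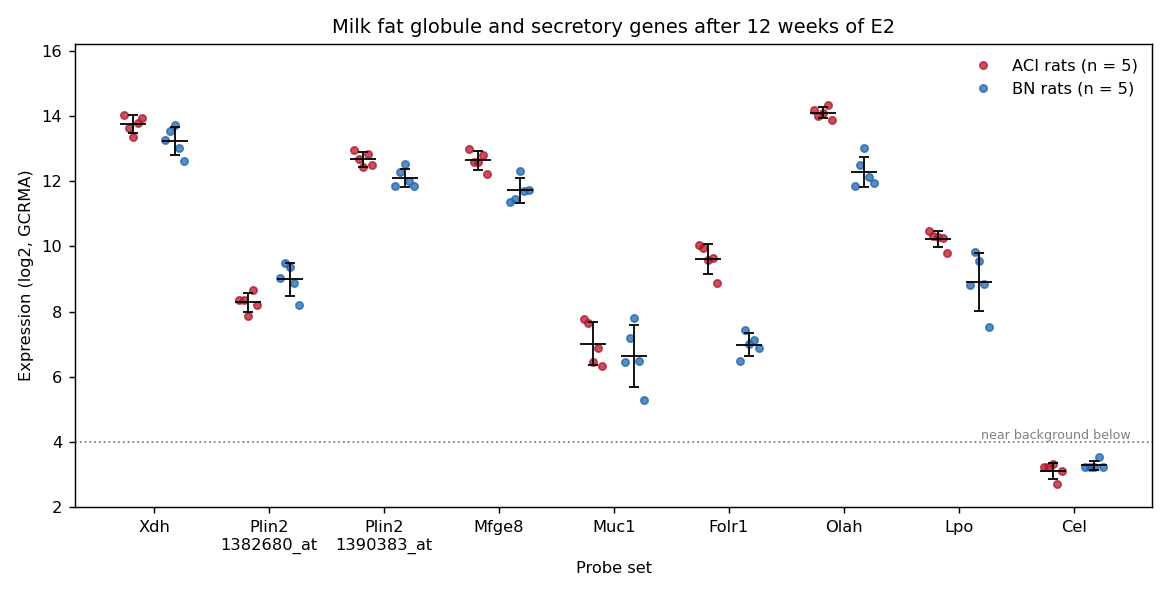
Log2 expression (y axis) of the 9 probe sets (x axis) in single rats, ACI in red and BN in blue, with mean ± SD over 5 rats per strain in black. The strains do not overlap in *Folr1* and *Olah*, all ACI rats but 1 lie above all BN rats in *Mfge8*, and *Cel* lies below the dotted line at 4 in every rat.

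For 2 of the 3 called genes RefSeq promoter sequence was at hand, and it is shown because these genes moved in the same direction. Each line gives the 250 bases before the annotated start in build GRCr8, 5′ to 3′ on the strand of the gene. The *Olah* window is chr17:79786582-79786831 on the plus strand, with matches to the GATA motif AGATAA in capitals. The *Mfge8* window is chr1:142489432-142489681 on the minus strand, with a match to AGGAAG, an ETS family motif, in capitals.
Olah: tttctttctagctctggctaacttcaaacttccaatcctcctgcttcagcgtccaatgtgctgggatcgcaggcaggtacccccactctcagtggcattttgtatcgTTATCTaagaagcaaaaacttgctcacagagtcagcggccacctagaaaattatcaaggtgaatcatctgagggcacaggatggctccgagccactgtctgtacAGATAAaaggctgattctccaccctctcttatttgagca
Mfge8: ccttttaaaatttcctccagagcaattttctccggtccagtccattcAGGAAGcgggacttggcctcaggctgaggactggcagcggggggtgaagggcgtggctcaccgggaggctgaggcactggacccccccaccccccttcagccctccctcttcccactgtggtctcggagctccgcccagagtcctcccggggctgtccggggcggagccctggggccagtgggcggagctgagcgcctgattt

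The *Olah* window holds AGATAA at 143 bases (as TTATCT on the other strand) and at 39 bases before the start, and 10.3% of the 33469 promoter windows in the table hold this motif on either strand. The *Mfge8* window holds AGGAAG at 203 bases before the start, as do 29.5% of all windows at some position. Its GC content was 66%, and that of the *Olah* window 47.6%. The STAT motif TTCNNNGAA is in 7.67% of all windows, the palindromic estrogen response element in 0.0239%, its element GGTCA, which the palindrome contains, in 35.4%, and TATAAA in 12.9%. None of these is in the *Olah* or *Mfge8* window. Both strands were searched, and a match is a run of letters and not a measured site.

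*Folr1* had the largest difference of the 9 probe sets. Its log2 levels were 10.04, 9.95, 9.59, 9.63 and 8.88 in ACI rats 1 to 5. In BN rats 1 to 5 they were 6.49, 7.43, 7.0, 7.14 and 6.87. Every ACI rat was higher than every BN rat, and the lowest ACI level lay 1.45 above the highest BN level. The means were 9.62 ± 0.457 for ACI and 6.99 ± 0.347 for BN (SD, n = 5 each), a difference of 2.63 (standard error 0.25, adjusted p = 0.000409 from limma). On the linear scale the level was 6.20-fold higher in ACI, with a 95% interval of 4.17 to 9.21. The exact permutation test gave a two-sided p of 0.00794, the smallest that 5 rats against 5 allow. Of all probe sets, 12.3% had no overlap between the strains, 6.80% toward ACI and 5.47% toward BN.

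*Olah* was also higher in every ACI rat. Its log2 levels were 14.18, 14, 14.07, 14.32 and 13.88 in ACI rats 1 to 5, and 11.86, 12.48, 13.00, 12.13 and 11.94 in BN rats 1 to 5. The ACI rats lay close together, with a mean of 14.09 ± 0.169 (SD, n = 5), and the BN rats were lower and more spread, with 12.28 ± 0.467 (SD, n = 5). The difference was 1.81 (standard error 0.217, adjusted p = 0.00122 from limma), which is a 3.5-fold higher level in ACI with a 95% interval of 2.48 to 4.94. The exact permutation test again gave its smallest p, 0.00794, and a gap of 0.88 separated the lowest ACI rat from the highest BN rat, rat 3.

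*Mfge8* was higher in ACI rats with a small overlap. Its log2 levels were 12.98, 12.57, 12.59, 12.79 and 12.22 in ACI rats 1 to 5, and 11.36, 11.45, 12.31, 11.70 and 11.74 in BN rats 1 to 5. Only BN rat 3 and ACI rat 5 overlapped, so that ACI was higher in 24 of the 25 pairs of an ACI and a BN rat. The means were 12.63 ± 0.283 and 11.71 ± 0.371 (SD, n = 5 each), a difference of 0.92 (standard error 0.204, adjusted p = 0.0210 from limma) or 1.89-fold, with a 95% interval of 1.37 to 2.61. The call was lost without ACI rat 4 (adjusted p = 0.0587), without BN rat 1 (0.0517) and without BN rat 2 (0.0551), with differences of 0.88, 0.83 and 0.85. The calls of *Folr1* and *Olah* were kept in each of the 10 fits that left out 1 rat.

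*Lpo* did not pass the test, although its levels lay nearly apart. Its log2 levels were 10.47, 10.30, 10.28, 10.24 and 9.80 in ACI rats 1 to 5, and 8.82, 9.83, 9.54, 8.83 and 7.52 in BN rats 1 to 5. BN rat 2, by 0.03, was above ACI rat 5, and the other pairs did not overlap. The ACI mean was 10.22 ± 0.25 and the BN mean 8.91 ± 0.893 (SD, n = 5 each), so the BN rats spread much more widely. The difference was 1.31 (standard error 0.405, adjusted p = 0.0737 from limma), with a 95% interval of 0.38 to 2.24. It was called without BN rat 5, whose level was the lowest, at a difference of 0.96 (adjusted p = 0.0417), and without BN rat 2 at 1.54 (adjusted p = 0.0487).

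The 2 probe sets of *Plin2* differed between the strains in opposite directions, and neither was called. Probe set 1390383_at had log2 levels of 12.94, 12.66, 12.42, 12.82 and 12.48 in ACI rats 1 to 5, and 11.85, 12.27, 12.51, 11.99 and 11.85 in BN rats 1 to 5. Its difference was 0.57 (standard error 0.158, adjusted p = 0.0507 from limma), and ACI was higher in 23 of 25 pairs. Probe set 1382680_at had 8.34, 8.35, 7.87, 8.67 and 8.21 in ACI rats 1 to 5, and 9.02, 9.49, 9.35, 8.86 and 8.20 in BN rats 1 to 5. Here most BN rats were the higher, with BN rat 5 the exception, and the difference was -0.70 (standard error 0.254, adjusted p = 0.125). Without BN rat 5 this probe set was called at -0.89 (adjusted p = 0.0194), and without BN rat 3 the other was called at 0.67 (adjusted p = 0.0190).

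Within each rat, the level of probe set 1390383_at minus that of 1382680_at set these probe sets against each other, a comparison chosen after their values were seen. It was 4.6, 4.31, 4.55, 4.15 and 4.27 in ACI rats 1 to 5. In BN rats 1 to 5 it was 2.83, 2.78, 3.16, 3.13 and 3.65. The strains did not overlap, and the mean was 1.27 higher in ACI (4.38 ± 0.192 against 3.11 ± 0.347, SD, n = 5 each; exact permutation test, two-sided p = 0.00794). As the opposite directions of these probe sets had already been seen, this p is not independent evidence that they changed unequally between strains. How often probe sets of other genes part in this way was not tested. Neither *Plin2* probe set was called by itself, and a single direction for *Plin2* cannot be given from these arrays.

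*Xdh* and *Muc1* did not pass the test. The *Xdh* level was 13.35 to 14.03 among ACI rats, with a median of 13.79, and 12.61 to 13.73 among BN rats, with a median of 13.27. The difference was 0.52 (standard error 0.224, adjusted p = 0.198 from limma), and its 95% interval ran from 0.0028 to 1.03. *Muc1* levels were 6.34 to 7.77 among ACI rats and 5.28 to 7.80 among BN rats, which covered the whole ACI range. Its difference was 0.38 (standard error 0.503, adjusted p = 0.715), and the 95% interval of -0.77 to 1.53 leaves a difference of either sign. *Cel* was near background in all rats, at 2.70 to 3.32 in ACI and 3.23 to 3.54 in BN, so no fold is given. At an unadjusted p under 0.05 there were 7 of the 9 probe sets, where 24.9% of all probe sets were.

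**Figure D2:**
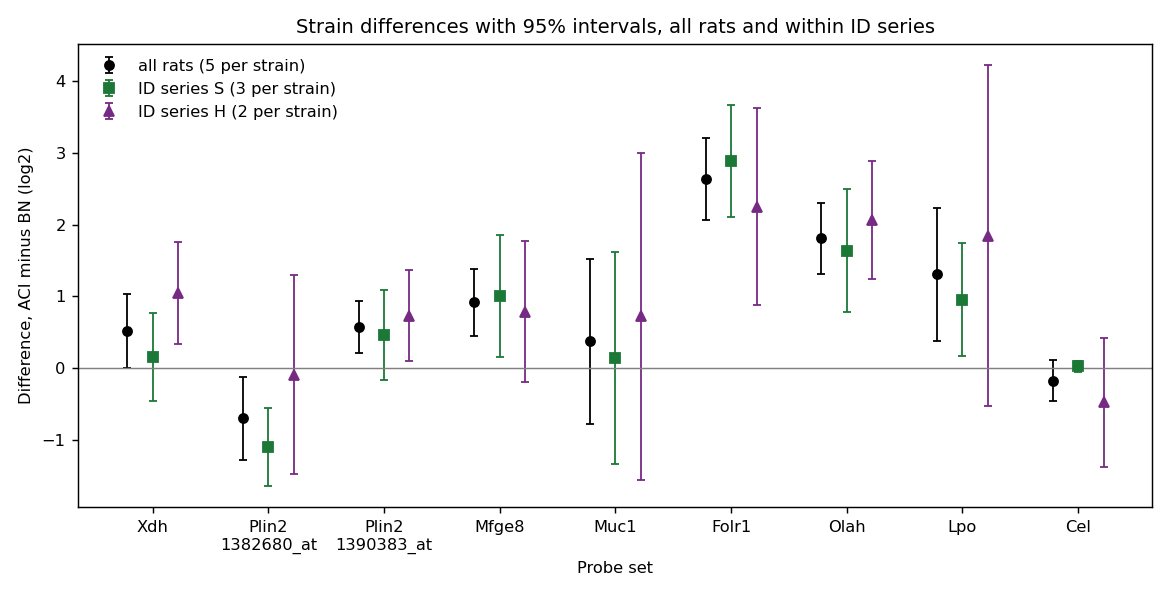
Difference in log2 level, ACI minus BN (y axis), of the 9 probe sets (x axis) with 95% intervals from limma, over all rats (black circles), ID series S (green squares) and ID series H (purple triangles). *Folr1* and *Olah* lie above 0 in both series, at 2.89 and 1.64 in S and 2.25 and 2.07 in H.

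Within ID series S, with 3 rats per strain, *Folr1* had a difference of 2.89 (adjusted p = 0.00910 from limma) and *Olah* one of 1.64 (adjusted p = 0.0396). *Mfge8* had 1.01 and was not called (adjusted p = 0.126). *Plin2* probe set 1382680_at was called toward BN at -1.10 (adjusted p = 0.0344). That made 3 of 9 called within series S, where 15.6% of all probe sets were, 6.67% toward ACI and 8.97% toward BN. Within series H, with 2 rats per strain, the test called 0.322% of all probe sets (0.145% with ACI higher, 0.177% with BN higher) and none of the 9, with *Folr1* at 2.25, *Olah* at 2.07, *Mfge8* at 0.79 and *Lpo* at 1.85. At an unadjusted p, the strain difference depended on the series in *Xdh* (0.16 in S and 1.05 in H), in *Plin2* 1382680_at (-1.10 and -0.09) and in *Cel*, where all values were near background. No interaction passed after adjustment by limma for the 9 probe sets (adjusted p = 0.230 to 0.941), where 2.76% of all probe sets passed and 17.8% had an unadjusted p under 0.05.

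The rats of a strain differed from each other in several of these genes at once. Over the 8 probe sets above background, ACI rat 1 had the highest level of its strain in 6, and ACI rat 5 had the lowest in 5, with ACI rat 3 the lowest in the other 3. BN rat 3 was the highest of its strain in 5 and BN rat 2 in 3, while BN rat 5 was the lowest in 4 and shared the lowest level in 1 more. On average over the 8 probe sets BN rat 5 lay 0.60 below its strain mean on the log2 scale (deviation -0.60) and BN rat 3 0.55 above. *Folr1* was the exception in BN rat 3, which lay at 7.0 where the strain mean was 6.99. Skeletal muscle genes were at a mean log2 level of 10.22 in BN rat 5 and of 3.78 to 7.30 in the other BN rats, and their part in the low levels of BN rat 5 was not tested. BN rat 3 stood apart in other markers. Its B and plasma cell genes were at a mean of 4.39 and those of the other BN rats at 8.22 to 9.37, its T cell genes at 5.40 against 7.43 to 8.15, and its luminal epithelium genes at 9.68 against 8.80 to 9.22. Without BN rat 3 *Mfge8* had a difference of 1.07 (adjusted p = 0.00501 from limma), and *Folr1* and *Olah* were called.

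**Figure D3:**
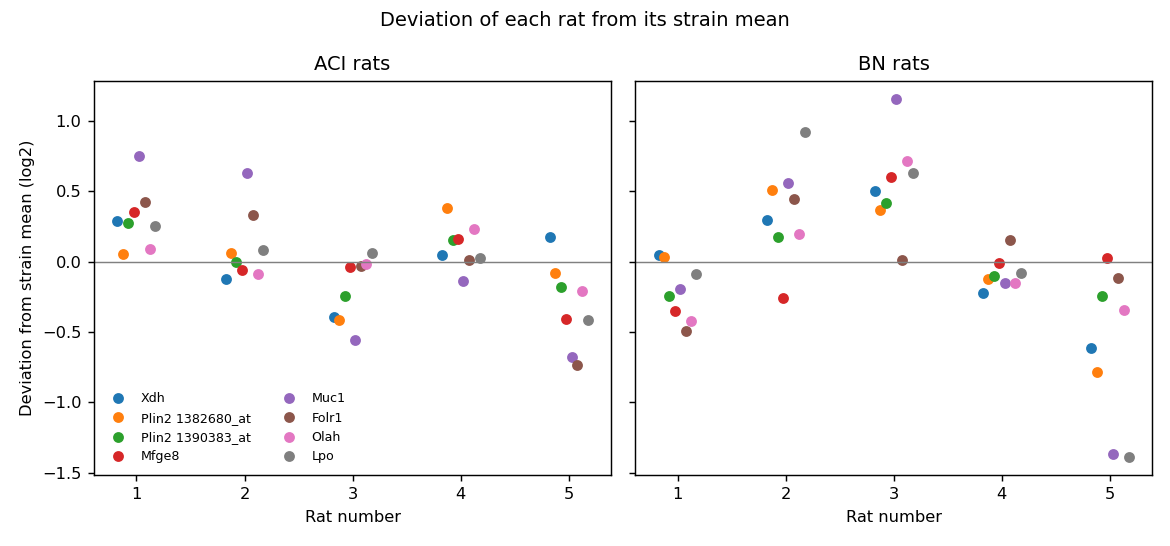
Deviation of each rat's log2 level from the mean of its strain (y axis) for 8 probe sets (colours), by rat number (x axis), in ACI rats (left) and BN rats (right). Most probe sets lie above 0 in BN rats 2 and 3 and below 0 in BN rat 5, where *Muc1* and *Lpo* lie furthest down.

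Of 12 genes that mark the luminal epithelium, the cells that make these products, 4 were called toward ACI, none toward BN and 8 did not pass the test. None of the 12 was near background in all rats of a strain, although the lowest BN levels of *Ehf* and *Elf3* were 3.04 and 3.98. Those called included the tight junction gene *Cldn3* at 1.92, the transcription factor gene *Ehf* at 2.81 and the keratin gene *Krt18* at 1.02. Among those not called, the keratin gene *Krt8* was at 0.22, and *Krt7* (-1.53), *Krt19* (-0.18) and the claudin gene *Cldn4* (-0.01) had differences below 0. The others not called lay above 0, *Cldn7* at 2.09, *Esrp1* at 1.06, *Elf3* at 0.52 and *Cdh1* at 0.35. By gene, the share called over all genes was 17.4%, made up of 8.29% toward ACI and 9.12% toward BN. The mean log2 level of the 12 genes was 9.71 to 10.11 among ACI rats and 8.80 to 9.68 among BN rats, without overlap, and was 0.75 higher in ACI. This mean was therefore subtracted, rat by rat, from the level of each of the 8 probe sets above background.

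Relative to the luminal genes of the same rat, *Folr1* and *Olah* stayed higher in ACI rats and *Mfge8* no longer stood apart. *Folr1* was 1.88 higher in ACI (-0.26 ± 0.479 against -2.14 ± 0.387, SD, n = 5 each). *Olah* was 1.06 higher, with relative levels of 4.04 to 4.30 in ACI rats and of 2.95 to 3.32 in BN rats. The spread of *Olah* within BN rats, an SD of 0.467 as deposited, was 0.144 on this relative scale. Not every gene had a smaller spread on it, as the SD of *Folr1* within BN rats was 0.347 as deposited and 0.387 relative. Neither gene overlapped between the strains (exact permutation test, two-sided p = 0.00794 for each). On this scale 58.9% of all probe sets had no overlap, 1.65% toward ACI and 57.3% toward BN, and among those with a mean log2 level of at least 4 the share was 38.9%, with 3.30% toward ACI and 35.6% toward BN. *Plin2* probe set 1382680_at did not overlap either, with BN the higher by 1.45 (difference -1.45, same p from the exact permutation test), the direction in which most probe sets without overlap lay.

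The other 5 probe sets overlapped on this scale. *Mfge8* had a difference of 0.17 (exact permutation test, two-sided p = 0.310), *Lpo* one of 0.56 (p = 0.103), *Plin2* 1390383_at -0.18 (p = 0.0873), *Xdh* -0.24 (p = 0.135) and *Muc1* -0.38 (p = 0.413). The directions of *Xdh*, *Muc1* and *Plin2* 1390383_at are therefore the reverse of those at the deposited scale, where none of them was called. Subtracting the luminal mean lowers every difference by 0.75, so these values are to be read relative to that shift, under which 80.9% of all probe sets were called, 3.08% toward ACI and 77.8% toward BN. The relative levels were computed after the data had been seen.

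**Figure D4:**
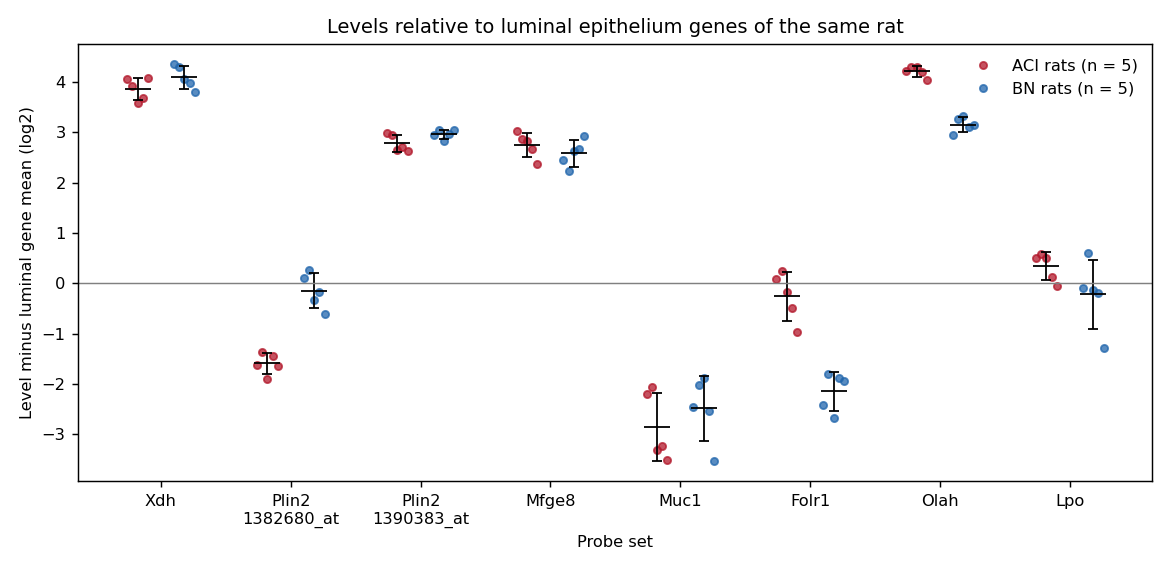
Log2 level of 8 probe sets minus the mean of 12 luminal epithelium genes in the same rat (y axis), by probe set (x axis), in ACI rats (red) and BN rats (blue), with mean ± SD over 5 rats. *Folr1* and *Olah* are higher in all ACI rats and *Plin2* 1382680_at is higher in all BN rats, while the strains overlap in the other 5.

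Markers of other cells also differed. Of the markers of basal and myoepithelial cells, 3 of 9 measured were called toward ACI and none toward BN, with mean log2 levels of 9.07 to 9.47 in ACI and 8.50 to 9.06 in BN rats. Markers of adipocytes, cells that also use Plin2, had 1 of 9 called, toward BN, and overlapped between strains (9.24 to 10.34 in ACI and 9.69 to 10.57 in BN rats). Macrophage markers were called toward BN in 5 of 10 (8.22 to 8.84 and 9.20 to 9.86), those of B and plasma cells in 6 of 7 (2.86 to 2.96 and 4.39 to 9.37), T cells in 5 of 8 (4.75 to 5.26 and 5.40 to 8.15), endothelium in 4 of 7 (6.26 to 7.03 and 7.47 to 8.36) and neutrophils in 3 of 8 (2.91 to 3.33 and 4.69 to 6.47), and none of these toward ACI. When a gene's probe sets were averaged, the macrophage list had 7 called toward BN and 1 toward ACI, and the luminal list 5 toward ACI and 1 toward BN. The neutrophil markers *Camp*, *Mmp8* and *Cxcr2* were at the lowest value of the data, 2.23, on all arrays, and *Lcn2*, counted here, is also in the list of milk proteins. Of 10 skeletal muscle markers none was called in either direction (6.97 to 11.41 in ACI and 3.78 to 10.22 in BN rats). The part of these cells in the differences of the milk genes was not tested.

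Markers of glands that are known for Cel and Lpo were examined beside them. Of 9 exocrine pancreas markers, 6 were near background on all arrays, *Cela2a* and *Ctrb1* at the lowest value throughout, while *Cpb1* and *Cela1*, which encode secreted proteases, were near background in ACI rats and at 6.20 to 7.99 and 5.37 to 6.93 in BN rats. The list mean was 2.49 to 2.63 in ACI and 3.29 to 3.61 in BN rats. *Cel* was near background in both strains. Of 6 salivary gland markers only the water channel gene *Aqp5* was called, toward ACI at 3.11, and *Smr3b* and *Prb1* were at the lowest value on all arrays. The list mean was 4.68 to 7.60 in ACI and 4.35 to 4.53 in BN rats, and *Aqp5* was the only gene of the list without overlap between strains. The 7.60 was that of ACI rat 3, where the saliva protein genes *Bpifa2* and *Smr3a* were at 12.79 and 7.24, while both were at 2.23 in every other rat. *Lpo* was at 10.28 in ACI rat 3, and without that rat its difference was 1.29 (adjusted p = 0.143 from limma).

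Genes that act with the members were counted in lists, each gene by its probe set of highest mean. The counts of each list below stand beside the share over all genes. That was 17.4%, with 8.29% toward ACI and 9.12% toward BN. Of 11 measured genes of the milk fat globule and lipid droplet, 2 were called toward ACI and 3 toward BN, with a median difference of 0.45. The vesicle transport gene *Rab18*, whose product sits on lipid droplets, was higher in ACI at 1.11 (adjusted p = 0.00288 from limma), with 10.72 to 11.26 in ACI rats and 9.64 to 10.27 in BN rats. *Anxa2*, a membrane-binding annexin, was higher in BN at -2.0 (adjusted p = 0.000242), and *Cidea*, a lipid droplet protein gene, at -1.51 (adjusted p = 0.00868). The strains did not overlap in any of these 3 genes. As they were named for the largest differences among the called genes of the list, this adds no support. The coat and droplet genes were thus called in both directions.

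Among 10 measured milk protein genes, the test called 6 toward ACI and 3 toward BN, with a median of 0.39. *Pigr*, the receptor that carries antibodies into milk, was higher in ACI at 1.57 (adjusted p = 0.000342 from limma). *Spp1* (osteopontin) and *Lcn2* (lipocalin 2) were higher in BN at -9.39 and -8.35, and were named by the study from these samples, so they are not independent evidence of a direction. The mean of this list, which includes *Spp1* and *Lcn2*, ran against its median. It was 12.57 in ACI and 13.93 in BN rats, a difference of -1.35. The differences of the other genes of the list lay between -0.27 and 1.57.

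Of 15 genes of milk fat synthesis, which supply the chains that Olah releases, 5 were called toward ACI and 1 toward BN, with a median of 0.24. The lipogenic regulators *Srebf1*, at 2.24 (adjusted p = 0.00597 from limma), and *Thrsp*, at 2.55 (adjusted p = 0.0189), and the glycerol acyltransferase gene *Gpam*, at 2.43 (adjusted p = 0.00226), were higher in ACI. None of the 3 overlapped between strains, but they were named as the called genes with the largest differences, so this adds no support. Of 14 regulators of secretory differentiation, 2 were near background on all arrays. The test called 8 of the 14 toward ACI and none toward BN, with a median of 0.99. They included *Xbp1*, a regulator of the secretory machinery, at 1.35 (adjusted p = 0.0144), the differentiation regulator *Id2* at 2.13 (adjusted p = 0.00280) and *Pgr*, the progesterone receptor gene, which lay between 4.75 and 5.16 in ACI but near background in every BN rat. The study named *Prlr*, *Stat5a*, *Gata3* and *Pgr* of this list from these samples, so its count is not independent evidence. Of these, *Pgr* and *Stat5a* were called by the probe set of highest mean. *Prlr*, at 2.57 (adjusted p = 0.0619 from limma), and *Gata3*, at 0.61 (adjusted p = 0.282), did not pass by that probe set alone. Other probe sets of a gene can differ from it. When a gene's probe sets were averaged, 10 genes of the list were called toward ACI and none toward BN.

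**Figure D5:**
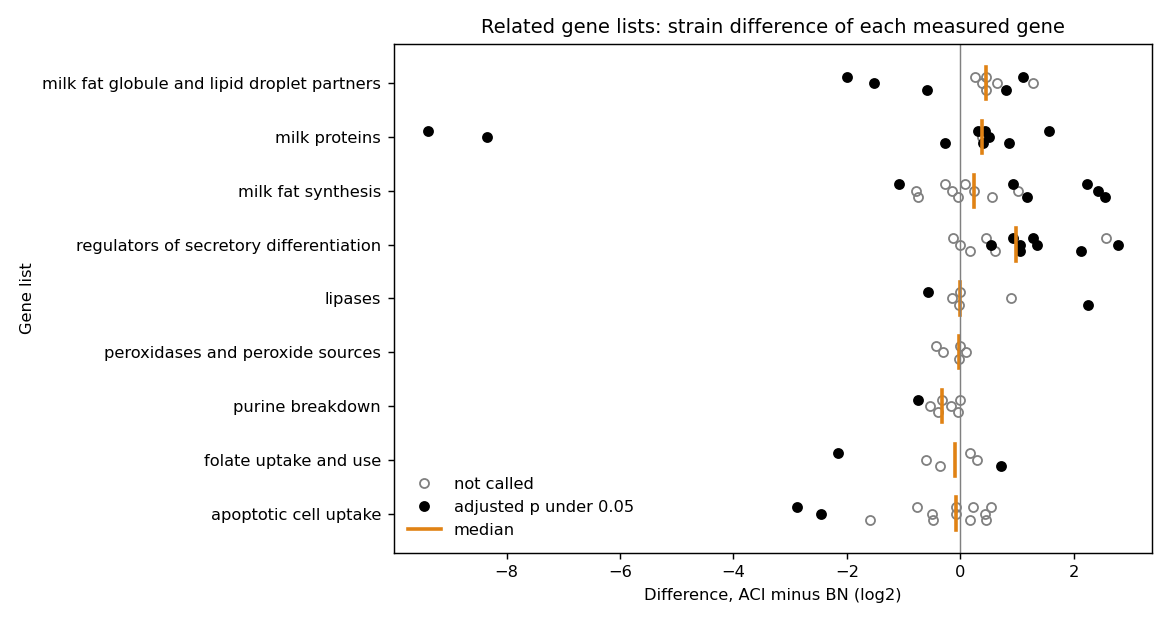
Difference in log2 level, ACI minus BN (x axis), of each measured gene of 9 related lists (y axis), filled where the adjusted p from limma was under 0.05 and open where it was not, with the list median in orange. Called genes of the list of regulators lie to the right of 0, those of milk fat globule, milk protein and milk fat synthesis lie on both sides, and none of the peroxidases was called.

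The remaining lists follow the enzymatic roles of single members, to be read beside the 17.4% of all genes that were called. For Xdh, 1 of 7 purine breakdown genes was called, the purine nucleoside phosphorylase gene *Pnp*, at -0.74 toward BN (adjusted p = 0.000173 from limma). For Folr1, 2 of 6 measured genes of folate uptake and use were called, *Shmt1*, a one-carbon metabolism enzyme, toward ACI at 0.72 (adjusted p = 0.0325) and *Fpgs*, which retains folate in cells, toward BN at -2.15 (adjusted p = 0.00354). These calls went in both directions, and the other measured genes of the list were not called. For Lpo, none of 5 measured peroxidases and peroxide sources was called, and 3 of these were near background on all arrays.

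For Mfge8, which bridges dying cells to integrins of phagocytes, 2 of 13 measured genes of apoptotic cell uptake were called, both toward BN. The share called over all genes was 17.4%, with 9.12% toward BN. *Itgb3*, an integrin chain gene, had -2.89 (adjusted p = 0.00509 from limma), with 3.51 to 4.39 in ACI rats and 4.96 to 7.58 in BN rats, and the scavenger receptor gene *Stab2* was near background in all ACI rats and at 2.23 to 6.10 in BN rats. For Cel, 2 of 6 measured lipases were called, the monoglyceride lipase gene *Mgll* toward ACI at 2.26 (adjusted p = 0.00141) and the lysosomal lipase gene *Lipa* toward BN at -0.58 (adjusted p = 0.0167).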

How the data were processed

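Total RNA of mammary glands from 10 female rats was hybridized to Affymetrix Rat Genome arrays, 1 array per rat. By the processing notes of the submitters, GCRMA 2.18.1 was used by the authors to summarize probes. The deposited values are log2 expression per probe set, with 2 decimals. The sources used here do not say which arrays shared a normalization. Array medians were 3.35 to 3.53, and 30.6% to 33.3% of probe sets were at the lowest value, 2.23. The number of arrays limits the precision.

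From the deposited values, 57 control probe sets were left out and limma 3.58.1 (R 4.3.3) fitted a model of strain alone to each of 31042 probe sets, with Benjamini-Hochberg adjustment over all of them. The fit was tested on simulated data. Exact permutation tests, two-sided, took all 252 arrangements of 5 rats against 5 (scipy 1.17.1). Of 20826 probe sets with 1 symbol, 20758 were matched by gene ID to RefSeq, assembly GRCr8; a former name of *Folr1*, *Fbp1*, now names another gene and was not taken.

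The members and gene lists were chosen with earlier results of these data known. The rule for named genes takes all members and up to 3 called genes with the largest difference of each list. *Camp*, *Mmp8*, *Cxcr2*, *Cela2a*, *Ctrb1*, *Smr3b*, *Prb1*, *Bpifa2*, *Smr3a*, *Krt7*, *Krt8*, *Krt19*, *Cldn4*, *Cldn7*, *Esrp1*, *Elf3*, *Cdh1*, *Prlr*, *Stat5a* and *Gata3* fall outside it, chosen once their values had been seen. Motifs were chosen from 15 with their matches known.

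Alternatives were a replicate block, the ID series as a block or alone, a filter at a mean of 4, a floor at 4, quantile normalization, centring on expressed probe sets or on luminal epithelium genes, trended and robust variance, array weights, Student's and Welch's tests, leaving out each rat in turn or BN rats 4 and 5, and, for the lists, averaging a gene's probe sets. Student's two-tailed test is the methods' t-test.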

Additional observations from a re-analysis of the deposited data

Results flagged for a closer look

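In 1 of 18 comparisons of a rat with the rest of its strain, over 9 probe sets and both strains, a rat stood apart from the others. *Cel* was at 3.54 in BN rat 4 and at 3.23 in each of the other BN rats, all near background. Chance alone flags about 1 in 20 groups where values are not tied. As the other BN rats were tied at 3.23, any different level in the remaining rat would have been flagged.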

How the results depend on the processing

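*Folr1* and *Olah* kept their direction in all 14 alternatives other than leaving out a single rat and their call in 13, with differences of 1.88 to 2.89 and of 1.06 to 2.07, the exception being ID series H alone. *Mfge8* lost its call with the replicate block (adjusted p = 0.112 from limma), in either ID series alone, relative to luminal genes and without BN rats 4 and 5 (adjusted p = 0.0593). *Plin2* 1382680_at was called in 7 of these 14, *Plin2* 1390383_at and *Lpo* in 5 each, and *Xdh* and *Muc1* in none.

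Counts are given for the 9 probe sets, against 3 called (3 toward ACI, 0 toward BN), and for all probe sets, against 3930 (2108 toward ACI, 1822 toward BN). The replicate numbers gave no clear pairing of the rats. Same-numbered rats deviated together with correlations of -0.25 to 0.23, and 1 of 10 arrays correlated best with its own number. With so few rats these correlations cannot decide whether same-numbered rats shared a batch, which was not tested. With the replicate block 2 of the 9 were called, and 1926 of all (1040 and 886). Within ID series S, 1 of the 9 was called toward BN, and 2783 of all. Within ID series H none of the 9 was called toward ACI (0) and none at all (0), with 100 of all (45 and 55). A mean of at least 4 left 8 of the 9 probe sets and 14525 of all. It gave 6 of the 8 (5 toward ACI, 1 toward BN) and 4921 of all (2639 and 2282). Quantile normalization, centring on the median of expressed probe sets and array weights each gave 6 of the 9 (5 toward ACI, 1 toward BN). Over all, quantile normalization gave 4559 (2446 and 2113) and centring on that median 5261 (2454 and 2807). Array weights gave 8397 (3719 and 4678). Centring on luminal genes gave 2 toward BN among the 9, *Plin2* 1382680_at and *Cel*, and 25111 of all (957 and 24154), and it reversed *Xdh* to -0.24, *Plin2* 1390383_at to -0.18 and *Muc1* to -0.38, each difference being lowered by 0.75. Without BN rats 4 and 5, 1 of the 9 was called toward BN, with 6350 of all (3768 toward BN), and *Muc1* reversed to -0.13. Within ID series S *Cel*, near background, reversed to 0.03, and it has no value with a mean of at least 4 or a floor at 4. Leaving out each rat in turn gave 2 to 5 of the 9 called, with 0 to 1 toward BN, and 2598 to 4618 of all, with 1176 to 2500 toward BN. The fewest of all were without ACI rat 4 (2598), and the most of the 9 without BN rat 5 (5). The methods' t-test, at the threshold of the methods, called 6 of the 9 and 7434 of all, and after Benjamini-Hochberg adjustment 4 of the 9 and 3962 of all. The methods give this test for differences between groups and refer to an earlier publication for the arrays. These counts therefore do not repeat the study's array procedure. Averaging a gene's probe sets left 1 milk fat globule gene and 0 lipases called toward ACI, and it gave 1 luminal gene called toward BN and 1 macrophage gene toward ACI where there had been none. The cause of these changes was not tested. The number of arrays and, for *Cel*, a signal near background limit what can be seen.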
